A study of Mus musculus with 4 samples.

Results

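Mitochondrial ribosomal proteins are the proteins of the mitoribosome, the ribosome inside mitochondria. Members were taken as every probe whose symbol in the series' probe table begins with Mrpl or Mrps followed by a number. This gave 75 probes for 74 genes, of 16631 probes with 1 symbol and 16383 genes with a usable probe. Mrps30 had 2 probes and each other gene had 1. The proteins of 48 members belong to the large subunit and those of 26 to the small subunit. Mrps18a and Mrps30 are counted in the large subunit, where their proteins sit despite their names.

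RNA came from the dorsal raphe nucleus, the midbrain nucleus that holds much of the brain's serotonergic neurons, of 10-week-old males on the C57BL/6J background. WT mice were taken without stress (non-stressed WT) or after stress (stressed WT), and D2R-KO and D2LR-KO mice, which lack the dopamine D2 receptor or only its long isoform, after stress alone, each group being 1 single-colour array of RNA pooled from 5 mice. The stressed mice swam for 6 min on 4 days in a row and were dissected 12 h after the last swim. With 1 array per group there was no replicate, so no difference below has an error or a test, and a non-stressed knockout array was not analysed here. A gene is called higher or lower when its normalized signal differed at least 1.5-fold and its spot was above the blank spots on at least 1 of the 2 arrays compared. Log2 differences are on the scale of log2 of background-corrected signal plus 50, which shrinks the differences of dim probes.

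The mitoribosome translates the few proteins that mitochondrial DNA encodes, all of them core parts of the respiratory chain and ATP synthase. Its RNAs come from mitochondrial DNA, while every one of its proteins is encoded in the nucleus, made on cytosolic ribosomes and imported. Some of these proteins have counterparts in bacterial ribosomes and others are found only in mitochondria. Neurons depend on oxidative phosphorylation for firing and transmitter release, and their mitochondria need this translation system throughout.

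All 75 probes lay above the blank-spot limit on all 4 arrays, with spot intensities between 42.7 and 2845. The stressed WT array stood apart from the others. Over all genes its correlation with them was 0.958 to 0.966, against 0.990 to 0.994 between the other arrays. Over the 74 members the same values were 0.942 to 0.948 and 0.989 to 0.993. Tph2, the enzyme that starts serotonin synthesis, had deposited intensities of 31.4 on the non-stressed WT array, 10.7 on stressed WT, 264.6 on stressed D2R-KO and 151.5 on stressed D2LR-KO. The 5 measured serotonergic markers together summed to 795.7, 802.9, 1717 and 1428 on these arrays, and 1 of them, Tph2, was past 1.5-fold between the WT arrays. It was lower on stressed WT (-0.63), as were Slc6a4 (-0.22) and Gchfr (-0.04), while Gata3 (0.45) and Slc18a2 (0.33) went the other way. The 5 choroid plexus markers summed to 13068 (non-stressed WT), 5756 (stressed WT), 43.3 (D2R-KO) and 217.9 (D2LR-KO), nearly all of it from Ttr on the WT arrays (12884 and 5720). All 5 were lower on stressed WT than on non-stressed WT, and 1 of 5, Ttr, was lower on each knockout than on stressed WT. The 3 pituitary markers summed to 83.7, 114.1, 575.1 and 90 in the same order, with D2R-KO the high array. The 3 measured neuronal markers summed to 8862, 5525, 11093 and 8019, and 1 of them, Snap25, was lower on stressed WT than on non-stressed WT (-1.01). Eno2 (0.14) and Syt1 (0.17) went the other way, short of 1.5-fold. The 5 astrocyte markers summed to 4500 on non-stressed WT, 2023 on stressed WT, 4381 on D2R-KO and 4656 on D2LR-KO. Between the WT arrays Gjb6 (-1.48) and Gja1 (-1.08) were lower. Aqp4, Gfap and Slc1a3 differed by -0.27, -0.16 and -0.09. The 3 measured oligodendrocyte markers summed to 7071, 8561, 9467 and 9964, with Mag higher (1.15) and Aspa lower (-0.67) on stressed WT. The 4 microglia markers summed to 363.5, 346.5, 381.8 and 392.8, and 0 were past 1.5-fold between the WT arrays. Deposited intensities of Drd2, the targeted gene, were 26.8, 43.8, 20.9 and 48.3 on the same 4 arrays in that order, and whether its probe lies in a deleted stretch is not known here. The sums are of deposited intensities, which are not quantile normalized, while the log2 differences are. In the deposited values genes as bright as the members had a median of -0.28 for stressed against non-stressed WT. After quantile normalization it was -0.03, so the sums also carry a shift between arrays. The part of tissue content in the results below was not tested, and in a pooled tissue sample fewer cells of a type and less RNA per cell cannot be told apart.

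Members differed more in comparisons with the stressed WT array than in the others, and so did all genes. The median size of a member's log2 difference was 0.22 to 0.28 with that array and 0.10 to 0.13 without. For all genes it was 0.19 to 0.20 and 0.07 to 0.08. For genes as bright as the members it was 0.37 to 0.42 and 0.13 to 0.15. The range of a member over the 4 arrays had a median of 0.36 on the log2 scale, against 0.29 over all genes. It was smallest for Mrpl51, at 0.09, and largest for Mrpl1, whose highest and lowest arrays differed 2.82-fold. The range was under 0.25 in 27 of 74 members and at least 1.5-fold in 19. Stressed WT was the lowest array in 13 of these 19 and the highest in 5. Over all 74, stressed WT was the lowest array for 37 members and non-stressed WT for 19. It was also the highest array for 20 members. D2LR-KO was the highest array for 24 members, D2R-KO for 21 and non-stressed WT for 9. The same counts were not made over all genes, so they are no result about the family. Of all 15875 genes, 5.42% lay at least 1.5-fold below and 5.32% above every other array on stressed WT. On each of the other arrays at most 0.340% did so in either direction.

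**Figure D1:**
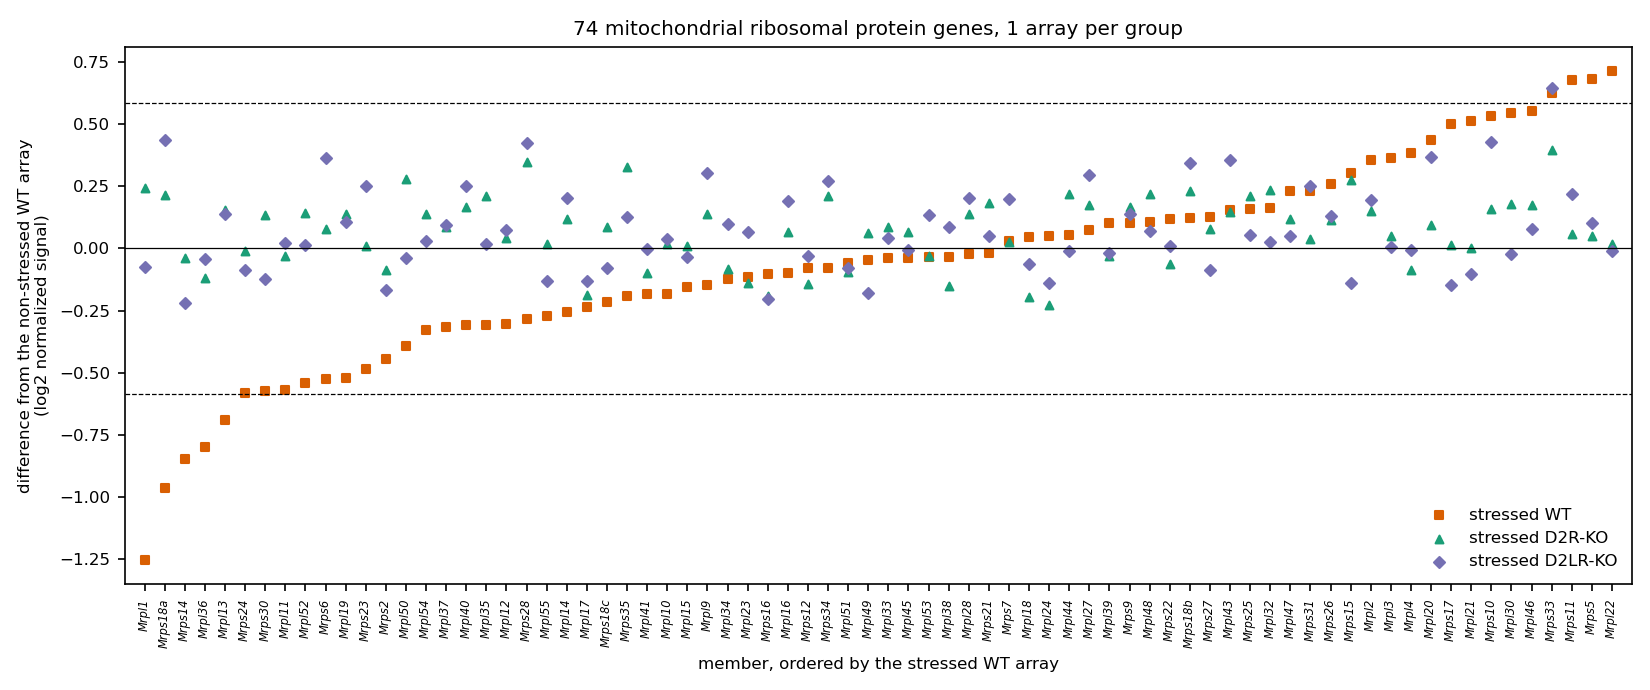
Log2 difference of each of the 74 members from the non-stressed WT array (vertical axis) on the stressed WT (squares), stressed D2R-KO (triangles) and stressed D2LR-KO (diamonds) arrays, with members ordered by stressed WT along the horizontal axis and dashed lines at 1.5-fold. Squares run from -1.25 to 0.71, while triangles stay between -0.23 and 0.39 and diamonds between -0.22 and 0.64.

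Stressed against non-stressed WT mice address what repeated forced swimming does to the dorsal raphe when the receptor is intact. In this comparison 5 members were lower on the stressed WT array, namely Mrpl1, Mrps18a, Mrps14, Mrpl36 and Mrpl13, and 4 were higher, namely Mrpl22, Mrps5, Mrps11 and Mrps33. These are 6.76% and 5.41% of the 74, beside 8.11% and 7.28% of all 15643 genes measured in that comparison, so the shares are near the background and are no result about the family. The median over members was -0.04 and 31 of 74 members were above 0. The median over all genes was 0.00. The median size of the difference, whatever its sign, was 0.25 for members and 0.19 for all genes. Brightness bears on such counts, because dim probes rarely pass a fold. Among the 4716 genes whose mean signal lay between the 10th and the 90th percentile of the members, 15.8% were lower and 13.3% higher, with a median size of 0.37.

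Mrpl1, which forms the mobile stalk beside the site where spent tRNA leaves the large subunit, showed the largest difference. Its deposited intensity was 133.5 on the non-stressed WT array, 36.8 on stressed WT, 176.3 on stressed D2R-KO and 126.3 on stressed D2LR-KO. The stressed WT value was the lowest by far and the other arrays lay close together. The normalized signal was 2.38-fold lower on stressed WT than on non-stressed WT, a log2 difference of -1.25.

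Mrps18a is a relative of the bacterial small-subunit protein S18 that became part of the mitochondrial large subunit. Its deposited intensity was 570.5 on non-stressed WT, 226 on stressed WT, 763.7 on D2R-KO and 811.2 on D2LR-KO. Stressed WT was again the lowest array, with a log2 difference of -0.96 from non-stressed WT. This sign turned to 0.21 when the brightness around each spot was subtracted as background. Mrps30, which also moved into the large subunit, had a smaller difference of -0.57, short of the fold. Its deposited intensities were 184.3, 99, 224.6 and 167.1 on the non-stressed WT, stressed WT, D2R-KO and D2LR-KO arrays. The second Mrps30 probe was dim, between 11.5 and 12.9 on all 4 arrays, and had no such difference.

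The other members lower on stressed WT each have bacterial counterparts. Mrps14, a protein of the small-subunit head, read 91.9 on non-stressed WT, 36.1 on stressed WT, 94.3 on D2R-KO and 73.8 on D2LR-KO, with a log2 difference of -0.85 for stressed WT. Mrpl36, a small protein of the large subunit, read 489.5, 216.9, 499.3 and 484.8 in the same order, with a difference of -0.80. Mrpl13, one of the proteins that join the large subunit early in its assembly, read 825.3, 401.6, 1064 and 951.8, with a difference of -0.69. In each of them the stressed WT array was the only low one. With the brightness around each spot as background, Mrpl36 differed by -0.002 and Mrpl13 by -0.32, while Mrps14 differed by -1.02.

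The members called higher on stressed WT differed by at most 0.71. Mrpl22, which lines the tunnel through which the new peptide leaves, read 577.1 on non-stressed WT, 757.5 on stressed WT, 662.3 on D2R-KO and 597 on D2LR-KO, a log2 difference of 0.71. Mrps5, near the entry of the mRNA channel, read 203.5, 278.5, 233.9 and 223.7, a difference of 0.68. Mrps11, of the small-subunit platform, read 269.8, 359.4, 313.6 and 324.8, a difference of 0.68. Stressed WT was the highest array for all 3, and none of the 3 was past 1.5-fold in the deposited values or after median scaling. Mrps33, a small-subunit protein without a bacterial counterpart, read 1032, 1224, 1561 and 1708, so that non-stressed WT was the lowest array and the 3 stressed arrays lay above it by 0.63, 0.39 and 0.64 on the log2 scale. The first of these was 0.03 after median scaling and 4.50 with the brightness around each spot as background.

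**Figure D2:**
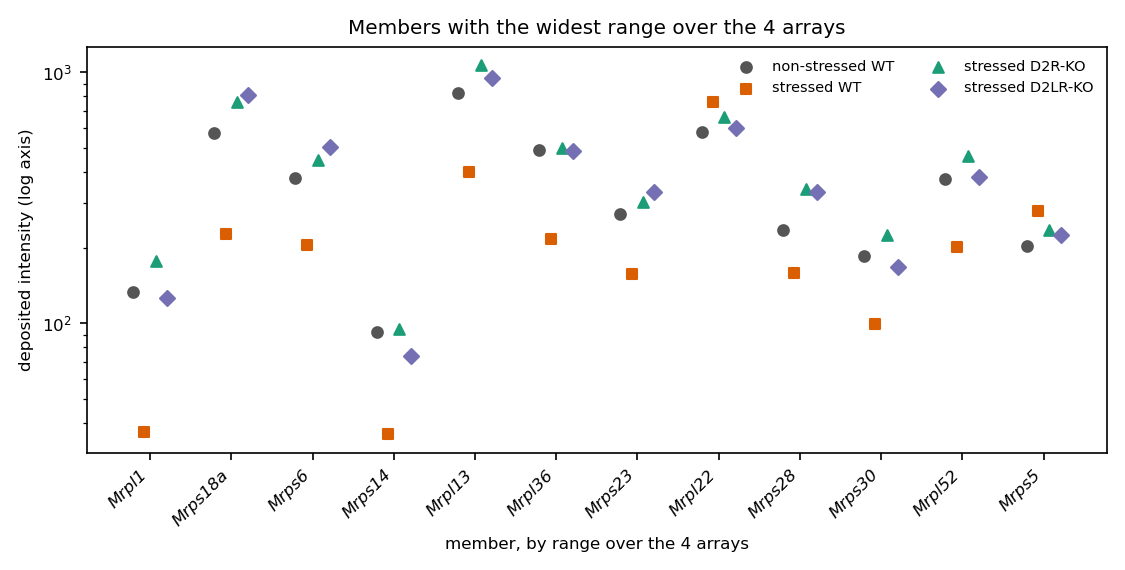
Deposited intensity (vertical axis, log scale) on each of the 4 arrays for the 12 members with the widest range. Stressed WT (squares) is the lowest array for 10 of them, including Mrpl1 at 36.8, and the highest for Mrpl22 and Mrps5.

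Promoters are shown for the members with the 2 largest lower differences and for the largest higher one, since NRF1, the ETS factor GABP and YY1 are known to bind near the start of many nuclear genes for mitochondrial proteins. The sequences are the 250 bases before the start of transcription, from RefSeq (GRCm38.p6), each on the plus strand, at chr5:96209865-96210114 for Mrpl1, chr17:46110754-46111003 for Mrps18a and chr11:58171414-58171663 for Mrpl22. Capitals mark matches, on either strand, to GCGCATGCG (NRF1 core), CCGGAAG (ETS core), AAGATGGCG (YY1 core) or GGGCGG (GC box of Sp1).
Mrpl1: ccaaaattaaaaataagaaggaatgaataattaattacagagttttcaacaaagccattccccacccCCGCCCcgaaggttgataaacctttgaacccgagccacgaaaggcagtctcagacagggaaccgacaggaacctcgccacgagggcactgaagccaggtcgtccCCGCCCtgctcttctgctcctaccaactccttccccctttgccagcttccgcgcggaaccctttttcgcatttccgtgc
Mrps18a: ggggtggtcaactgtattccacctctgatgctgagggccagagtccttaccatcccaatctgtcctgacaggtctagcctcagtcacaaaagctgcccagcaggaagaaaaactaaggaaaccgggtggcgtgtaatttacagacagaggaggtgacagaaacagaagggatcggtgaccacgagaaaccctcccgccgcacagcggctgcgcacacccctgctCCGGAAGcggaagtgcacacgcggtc
Mrpl22: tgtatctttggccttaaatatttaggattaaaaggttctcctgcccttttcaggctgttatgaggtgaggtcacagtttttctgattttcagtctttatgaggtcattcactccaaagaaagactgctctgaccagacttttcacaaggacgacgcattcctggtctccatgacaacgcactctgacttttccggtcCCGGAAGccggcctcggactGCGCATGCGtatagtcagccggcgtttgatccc

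In Mrpl1 the capitals are 2 GC boxes, read on the other strand as CCGCCC, which begin 183 and 79 bases before the start. In Mrps18a an ETS core begins 26 bases before the start. In Mrpl22 an ETS core begins 53 bases and an NRF1 core 33 bases before the start. A match is a description of letters and not a bound site.

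Over windows of 300 bases, with 50 bases after the start included, promoters were found for 65 of the 74 members. The ETS core stood in 24 of these 65 (36.9%), against 9.93% of all 27025 genes in the promoter table. The NRF1 core stood in 7 (10.8%), against 1.95%, and the YY1 core in 7 (10.8%), against 1.64%. The GC box stood in 31 (47.7%), against 38.2%. All windows have the same length, and neither base composition nor the overlap of neighbouring motifs was accounted for. The counts were then split by the stressed WT difference. Of the 4 lower members with a promoter, 1 held an ETS core and 0 an NRF1 core. Of the 4 higher members, 2 held an ETS core and 1 an NRF1 core, and of the 57 others 21 and 6 did.

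By subunit, 4 of 48 large-subunit members were lower on stressed WT and 1 higher, with a median of -0.08. Of the 26 small-subunit members 1 was lower and 3 were higher, with a median of 0.07. The sign of the small-subunit median turned after median scaling, to -0.35, where that of the large subunit was -0.51. Of 30 large-subunit genes with bacterial counterparts, 3 were lower and 1 was higher. Of 21 large-subunit genes without a counterpart in the bacterial large subunit, 1 was lower. The latter list has 3 genes that the probe table holds under older symbols and that are therefore no members. Of the small-subunit members, 16 listed as having bacterial counterparts had 1 lower and 2 higher. The 10 others, among them Mrps18b, a relative of bacterial S18, had 1 higher.

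Members that sit together in the ribosome gave mixed values on stressed WT. The sets below were named for their place after their values were seen. At the stalk that recruits translation factors, Mrpl10 differed by -0.18, Mrpl11 by -0.57 and Mrpl12 by -0.30, and the stressed WT array was the lowest for all 3. Mrpl11 read 146 on non-stressed WT, 77.2 on stressed WT, 152.4 on D2R-KO and 149 on D2LR-KO. At the exit tunnel, Mrpl22 differed by 0.71, while Mrpl23 and Mrpl24 differed by -0.12 and 0.05. Mrps6, the partner of S18-type proteins on the platform, read 379, 205.4, 446 and 502.8, a difference of -0.52 for stressed WT. Mrps18b and Mrps18c, the S18-type proteins that stay in the small subunit, differed by 0.12 and -0.22.

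The direction of the family as a whole depended on how the arrays were scaled. With medians scaled in place of quantiles, 28 of 74 members were lower on stressed WT and 0 higher, with a median of -0.49. With the authors' deposited intensities plus 25, 15 were lower and 0 higher, with a median of -0.31. Genes of like brightness moved along with them, with medians of -0.40 and -0.24 and with 35.6% and 25.6% of these genes lower. The 5 lower members stayed past 1.5-fold under both, while 0 of the 4 higher ones did. With the brightness around each spot as background, 2 of the 5 lower and 2 of the 4 higher members stayed past it. Over the 7 ways of processing tried, 25 members were below 0 in all, 5 were above 0 in all, and the sign of 44 differed.

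**Figure D3:**
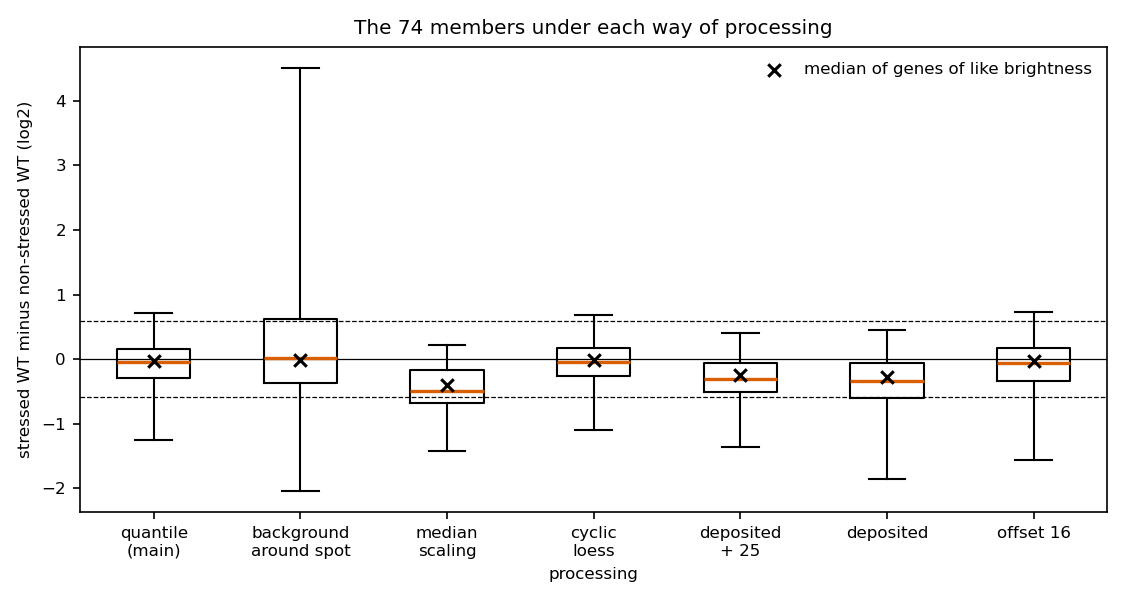
Stressed WT minus non-stressed WT (log2, vertical axis) for the 74 members under 7 ways of processing (horizontal axis). Boxes span the quartiles, orange lines are medians, whiskers reach the lowest and highest member, crosses are the medians of the 4716 genes of like brightness and dashed lines mark 1.5-fold. Boxes and crosses shift down together under median scaling and in the deposited values.

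The stressed knockouts were then set against non-stressed WT. These 2 comparisons share the non-stressed WT array with each other and with the one above. On the stressed D2R-KO array 0 of 74 members were higher and 0 lower, beside 0.577% and 1.48% of all genes. The median was 0.08, beside 0.006 for all genes and 0.019 for genes of like brightness. In all 54 of 74 members were above 0, and the differences ran from -0.23 for Mrpl24 to 0.39 for Mrps33. On the stressed D2LR-KO array 1 member, Mrps33, was higher and 0 were lower, beside 0.745% and 1.41% of all genes. The median was 0.05, beside 0.002 for all genes and 0.009 for genes of like brightness. Here 46 members were above 0, and the lowest difference was -0.22 for Mrps14. The share of all genes above 0 was not counted in either comparison. The sign of the members' median on D2LR-KO turned, to -0.10, after median scaling. The median size of a member's difference was 0.13 on D2R-KO and 0.10 on the other, against 0.08 for all genes in both. Among genes of like brightness this size was larger than in members, at 0.149 on D2R-KO and 0.147 on D2LR-KO. Mrps33 was short of 1.5-fold on D2LR-KO after median scaling. Mrps28, a small-subunit protein among the members with the widest range, read 235.8 on non-stressed WT, 158.9 on stressed WT, 342.2 on D2R-KO and 331.9 on D2LR-KO. Its log2 differences were 0.35 and 0.42 for the knockouts. These counts were the same when the 3 arrays were normalized without stressed WT, a check chosen after the data were seen. They did not hold with the brightness around each spot as background, which gave 16 higher and 6 lower on D2R-KO (7.05% and 5.04% of all genes) and 16 higher and 5 lower on D2LR-KO (6.96% and 4.79%).

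The knockouts were also compared with stressed WT, and both comparisons share that array, which stands apart. On D2R-KO 11 members were higher and 3 lower, beside 9.31% and 8.64% of all genes and 18.0% and 16.3% of genes of like brightness. The largest higher differences were those of Mrpl1 (2.82-fold), Mrps18a (log2 difference 1.18), Mrpl13 (0.84), Mrps14 (0.81) and Mrps30 (0.70). The lower members were Mrpl22 (-0.70), Mrps5 (-0.63) and Mrps11 (-0.62). On D2LR-KO 10 members were higher and 3 lower, beside 8.72% and 8.2% of all genes and 17.1% and 15.3% of genes of like brightness. Mrps18a (1.40), Mrpl1 (1.18), Mrps6 (0.89), Mrpl13 (0.83) and Mrpl36 (0.76) led the higher members. The lower members were Mrpl22 (-0.72), Mrps17 (-0.65) and Mrpl21 (-0.61). Medians over the family were 0.10 and 0.13, beside -0.005 and -0.011 for all genes and 0.03 and 0.02 for genes of like brightness.

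The split again moved with the scaling. With median scaling 34 members were higher and 0 lower on D2R-KO, and 20 were higher and 0 lower on D2LR-KO. The deposited intensities plus 25 gave 30 higher and 0 lower, and 20 higher and 0 lower. These 30 and 20 are 40.5% and 27.0% of the members, beside 17.7% and 13.9% of all genes and 36.2% and 27.6% of genes of like brightness. Among genes of like brightness, median scaling made 40.1% higher and 6.45% lower on D2R-KO, and 25.02% and 8.14% on D2LR-KO. Mrps18a turned to -0.17 and -0.07, and Mrps6 on D2LR-KO to -0.26, when the brightness around each spot was taken as background. Mrps5 on D2R-KO turned to 0.16. With this background 8 of the 11 higher members stayed past 1.5-fold on D2R-KO and 1 turned sign, while on D2LR-KO 5 of 10 stayed and 4 turned. Of the 3 lower members 1 stayed and 1 turned on D2R-KO, and 2 stayed and 0 turned on D2LR-KO.

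The stressed WT array was at least 1.5-fold below each of the other 3 for 5 members, the 5 named above as lower, and above each of them for Mrpl22. Over all genes the shares were 5.42% below and 5.32% above, so the count of 5 in 74 is near the background. None of the other arrays stood apart in this way for any member, beside only 0.0378% to 0.340% of all genes per array and direction. That absence is therefore near the background too. Mrps17, a small-subunit protein with a bacterial counterpart, read 584.4, 675.4, 675.3 and 546 on the non-stressed WT, stressed WT, D2R-KO and D2LR-KO arrays. Mrpl21, of the large subunit, read 435.8, 500.4, 485.9 and 409.7, and D2LR-KO was the lowest array for both. Mrps23 read 272.7, 156.7, 302.9 and 333.3, and Mrpl52 read 374.7, 201.5, 463.2 and 381.4, with stressed WT lowest in both. Both proteins are mitochondria-specific.

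The 2 knockout arrays compared directly showed 0 of 74 members higher and 0 lower, beside 0.666% and 0.333% of all genes. Differences of D2LR-KO minus D2R-KO ran from -0.42 for Mrps15 to 0.28, the value of both Mrps6 and Mrpl20, and their median was 0.01. The median was -0.19 after median scaling, and 7 members were higher and 4 lower with the brightness around each spot as background, beside 2.999% and 2.47% of all genes. Among genes of like brightness these shares were 7.15% and 5.53%. Mrps15 read 493.4 on non-stressed WT, 488.8 on stressed WT, 683.8 on D2R-KO and 455.4 on D2LR-KO. For scale, 48 positive control spots had an SD of the log2 difference between arrays of 0.10 to 0.20, which reflects the slide and scan and not the animals.

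At the bright end of the family, Mrpl30 read 951.8, 1093, 1219 and 963.3 and Mrpl20 read 890.2, 944, 1087 and 1210 on the non-stressed WT, stressed WT, D2R-KO and D2LR-KO arrays. Both join Mrps33 as the members with the highest mean signal. Mrpl41, Mrpl33 and Mrpl15 had the lowest. Mrpl15 read 5.4, 2.4, 5.7 and 4.6, and for such dim probes the offset leaves little room for any difference.

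Other genes of mitochondrial translation were counted from lists of their own, for stressed against non-stressed WT (8.11% of all genes lower and 7.28% higher). Among 4 measured mitoribosome proteins that bear other names, Chchd1 was lower on stressed WT, with 365.7 on non-stressed WT, 165.4 on stressed WT, 484.8 on D2R-KO and 405.8 on D2LR-KO (log2 difference -0.79). None of 14 mitochondrial translation factors was past the fold in either direction between the WT arrays. Against stressed WT, 4 of them were higher on D2R-KO and 1 on D2LR-KO, beside 9.31% and 8.72% of all genes. Of 21 assembly factors, Malsu1, which binds the large subunit late in assembly and keeps the small one off, was lower (-1.26) and Nsun4, a methyltransferase of the small-subunit RNA, was higher (0.80). Malsu1 read 126.9, 34.1, 171.5 and 144.7. Of 15 mitochondrial aminoacyl-tRNA synthetases 3 were lower, namely Lars2 (-1.08), Fars2 (-0.84) and Cars2 (-0.82), and Vars2 was higher (0.68).

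Regulators and partner complexes gave further values on stressed WT. Of 17 genes of mitochondrial DNA transcription and upkeep, a list that includes nuclear regulators, 2 were lower and 3 higher. Ppargc1a, the coactivator PGC-1alpha, which drives mitochondrial biogenesis, read 258.5 on non-stressed WT, 71.4 on stressed WT, 329.7 on D2R-KO and 229.7 on D2LR-KO (-1.37). Its partner Esrra differed by -0.75, while Gabpa, the DNA-binding subunit of GABP, and the coactivator Pprc1 differed by 0.80 and 0.79. The other higher gene was Ppargc1b (0.60). All of these called genes are regulators, and no further gene of the list was past the fold. Of 61 cytosolic ribosomal proteins 17 were lower and 3 higher, with a median of -0.24, and probes of this family may not separate its many near-identical copies. Of 80 respiratory chain and ATP synthase genes, the partners of the mitochondrially made proteins, 18 were lower and 6 higher, with a median of -0.03. Cox5a (-1.97), Atp5c1 (-1.78) and Uqcrfs1 (-1.62) were the lowest of these, and Ndufa4l2 (1.78), Cox4i2 (0.96) and Cox7c (0.84) the highest. Shares lower were 27.9% for cytosolic ribosomal proteins and 22.5% for the respiratory chain, against 6.76% for the members and 8.11% for all genes. Among genes as bright as the members 15.8% were lower. The lists were not matched for brightness. Summed deposited intensities on non-stressed WT were 141854 for cytosolic ribosomal proteins and 200428 for the respiratory chain. Those of the large-subunit and small-subunit members were 17474 and 9330. No test of the difference between lists was made. With the brightness around each spot as background, 13 cytosolic ribosomal proteins were lower and 16 higher, and 18 respiratory chain genes were lower and 25 higher. The shares of all genes in that setting were 9.97% lower and 9.93% higher. With median scaling the counts were 33 and 0, and 37 and 2, beside 16.5% and 2.69% of all genes.

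**Figure D4:**
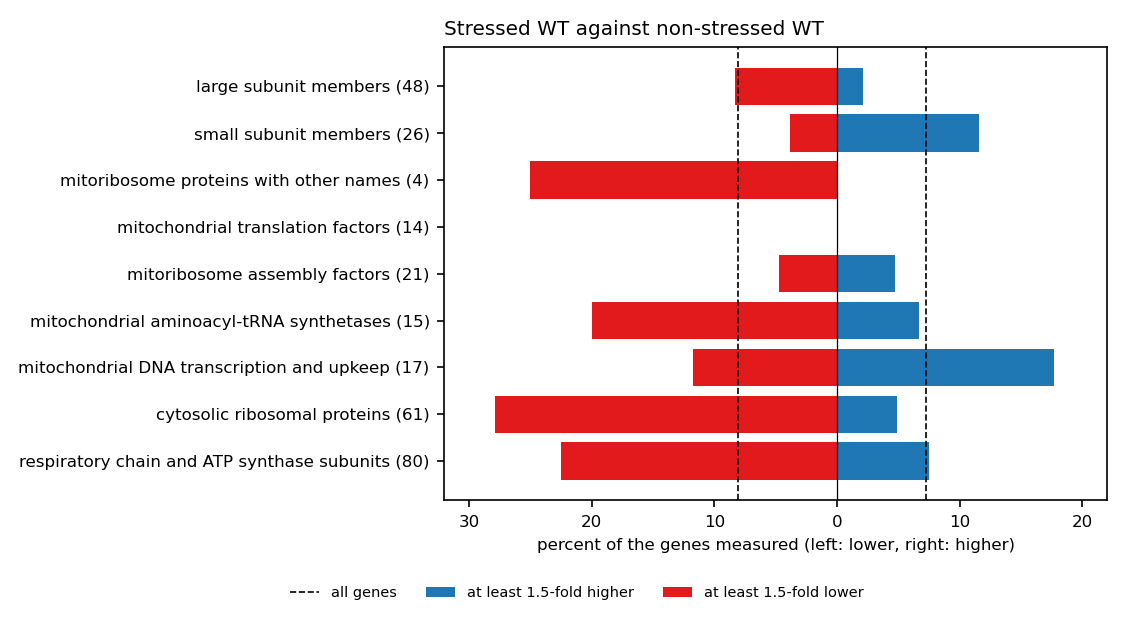
Percent of the measured genes of each list (number in brackets) at least 1.5-fold lower (left, red) or higher (right, blue) on stressed WT than on non-stressed WT, with dashed lines at the shares of all genes, 8.11% and 7.28%. On the lower side the large subunit reaches 8.33%, the small subunit 3.85%, cytosolic ribosomal proteins 27.9% and respiratory chain genes 22.5%, and on the higher side the subunits reach 2.08% and 11.5%. The lists were not matched for brightness.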

How the data were processed

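RNA of 4 pools was read on 4 single-colour Toray arrays (Cy5, 635 nm, 3 scans each), per the labels and the file headers. The way these scans were merged is not stated in the sources used here. Spot medians, without background subtraction per the file headers, and the authors' deposited value table both hold linear intensity. By regression on the spots, a deposited intensity is the spot minus a constant (36.7 to 38.8), divided by a factor (1.51 to 2.05) that sets each array's median to 25.

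Spots were corrected by normexp with 2736 blank spots as negative controls (limma 3.58.1, R 4.3.3; offset 50), then log2 and quantile normalization. The probe with the highest mean signal stood for a gene, and spots above the blank mean plus 2 SD (38.0 to 40.3) counted as detected. The steps were tested on simulated data. Figures and counts used Python 3.11.15 with pandas 2.3.3. The number of arrays limits precision. Named members are the 12 widest in range, up to 5 per direction and comparison past 1.5-fold, and the 3 brightest and dimmest; members named otherwise were chosen after their values were seen. Of other lists, up to 3 genes per direction are named. Members and lists were chosen with earlier results of these data known. Alternatives changed the background, the scaling, the offset, the fold, the filter and the choice of probe, and used the deposited values. Promoters come from RefSeq (GRCm38.p6). Probes without a symbol were not analysed here.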

Additional observations from a re-analysis of the deposited data

How the results depend on the processing

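With 1 array per group leaving out a replicate was not possible, and no error of the difference between animals is known. No paired analysis was possible because each group has 1 array and the labels give no replicate numbers. The offset limits the fold of dim members: Mrpl15 read -0.16 with it and -1.17 in the deposited values without a pseudocount. The cause of each shift below was not tested.

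With the brightness around each spot as background, 19 members were higher and 12 lower on stressed WT than on non-stressed WT, 16 and 6 on D2R-KO, and 16 and 5 on D2LR-KO. The shares of all genes were 9.93% and 9.97%, 7.05% and 5.04%, and 6.96% and 4.79%, and those of genes of like brightness 22.5% and 21.0%, 16.5% and 11.2%, and 15.97% and 10.9%. Against stressed WT, 8 were lower on D2R-KO and 5 on D2LR-KO, and D2LR-KO against D2R-KO had 7 higher and 4 lower. Shares lower against stressed WT were 7.42% and 6.91% of all genes, and 16.1% and 14.7% of genes of like brightness. For D2LR-KO against D2R-KO 7.15% of genes of like brightness were higher and 5.53% lower. Spot and surrounding brightness correlated at 0.876 to 0.958. Mrps18a then read 0.21 (stressed against non-stressed WT), -0.17 (D2R-KO against stressed WT) and -0.070 (D2LR-KO against stressed WT), Mrps5 0.16 (D2R-KO against stressed WT) and Mrps6 -0.26 (D2LR-KO against stressed WT).

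Median scaling gave a median of -0.49 with 0 higher and 28 lower for stressed against non-stressed WT, and -0.10 with 0 higher for D2LR-KO against non-stressed WT. Against stressed WT it gave 0.56 with 34 higher and 0 lower for D2R-KO and 0.37 with 20 higher and 0 lower for D2LR-KO. Of all genes 16.5% were lower between the WT arrays, and 18.5% and 12.0% higher on these knockouts against stressed WT. Genes of like brightness had shares of 35.6%, 40.1% and 25.02%. For D2LR-KO against D2R-KO median scaling gave -0.19 with 1 lower, beside 4.56% of genes of like brightness. The deposited values plus 25 gave -0.31 with 0 higher and 15 lower for stressed against non-stressed WT, 1 higher for D2R-KO against non-stressed WT, and 0.47 (30 higher, 0 lower) and 0.41 (20 higher, 0 lower) for D2R-KO and D2LR-KO against stressed WT. Without the 25, the same comparisons gave -0.35 (0 and 20), 0.24 with 1 higher, 0.53 (34 and 0) and 0.49 (28 and 0), and 1 lower for D2LR-KO against D2R-KO. With the 25, 12.8% of all genes were lower between the WT arrays, and 17.7% and 13.9% higher on the knockouts against stressed WT. Without it these shares were 24.6%, 29.2% and 25.4%. Genes of like brightness had 25.6%, 36.2% and 27.6% with the 25, and 31.2%, 41.0% and 33.5% without.

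An offset of 16 gave 9 lower for stressed against non-stressed WT. At 2-fold, 0 were higher and 1 lower there, 0 were higher on D2LR-KO against non-stressed WT, and 2 were higher and 0 lower on each knockout against stressed WT. Of all genes, 1.46% were then higher and 2.14% lower between the WT arrays. Against stressed WT, 2.71% of all genes were higher on D2R-KO and 2.62% on D2LR-KO. Cyclic loess, the filters, the choice of probe and normalizing without stressed WT moved no family count past 1.5 times and no median past the control spots' SD.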

Other observations

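Mitoribosomal genes that the probe table names by older symbols fell outside the members and gave these values. Mrpl42 (D10Ertd322e there), a large-subunit protein without a bacterial counterpart, had deposited intensities of 1149 on non-stressed WT, 752.5 on stressed WT, 1665 on D2R-KO and 1414 on D2LR-KO. Mrpl57 read 52.1, 30.3, 48.3 and 40.1 on the same arrays. Mrpl58 (Ict1 there), a peptidyl-tRNA hydrolase built into the large subunit, read 247.9, 240.2, 259.6 and 276. Their log2 differences of stressed WT from non-stressed WT were -0.24, -0.43 and 0.24, all short of 1.5-fold.

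Gadd45gip1, a large-subunit protein with another name, read 146.6 on non-stressed WT, 81.2 on stressed WT, 254.3 on D2R-KO and 189.1 on D2LR-KO. Ptcd3, of the small subunit, read 428.8, 387.2, 510.5 and 564.5 on these arrays.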
